A study of Mus musculus with 9 samples.

Results

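The 10 genes described here act in autophagy and the lysosome: Ulk1, Becn1, Atg7, Map1lc3a, Map1lc3b, Gabarapl1, Sqstm1, Bnip3, Lamp2 and Ctsl. They were chosen by name, and all 10 are among the 18193 genes that single-gene probe sets of the array name. A probe set is a group of short probes read as 1 value, and 28 of the 45101 probe sets named these 10 genes. The samples were quadriceps femoris of the thigh, 1 array for each of 9 females, all labelled C57Bl/6 HT transgenic, a line in which a self MHC class I protein is made in skeletal muscle once doxycycline is withdrawn. Late mice (n = 3) came off doxycycline at 35 days of age and were killed at 50 days. Early mice (n = 3) came off it at 21 days and were killed at 35 days, after 2 weeks of expression. Control mice (n = 3) were never taken off the drug and were killed at 35 days. The treatment protocol describes the controls as single-transgenic littermates, although all groups carry the same strain label, so a difference in genotype cannot be told apart from the rest. Late mice were older than both other groups, so age and the timing of induction cannot be told apart in any comparison with them. The labels do not name the promoter of the transgene or say whether the mice of a group shared a litter.

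Autophagy encloses part of the cytoplasm in a double membrane and delivers it to the lysosome, where acid hydrolases degrade it. ULK1 kinase starts the process, a lipid kinase complex around Beclin 1 marks the membrane, and a conjugation route that needs ATG7 attaches proteins of the LC3 and GABARAP family to it; receptors such as p62, encoded by Sqstm1, tie cargo to these proteins. In skeletal muscle the pathway removes damaged mitochondria and protein aggregates, and transcripts of several of its genes are known to rise during fasting and denervation.

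Values are log2 expression as deposited, and 1 unit is a 2-fold difference. A gene was represented by its probe set of highest mean and was tested where that set was above 5 in at least 3 arrays. All 10 genes passed, 9 of them with every array above 5 and Atg7 with 8 of 9 arrays. Differences are given with their SE from limma, a linear model fitted to 9697 genes, and a gene was called changed at a Benjamini-Hochberg adjusted p under 0.05 over all of them. Probe sets differ in brightness, so levels of different genes are not set against each other.

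H2-K1, which encodes a classical class I molecule, stood at 14.20, 13.11 and 14.31 in late, 14.67, 14.63 and 14.69 in early and 10.88, 10.47 and 10.21 in control arrays, so every induced array lay above every control. Some arrays stood apart from others of their group. The first late array held neutrophil transcripts that the other 8 arrays lacked: the summed linear level of 4 neutrophil markers was 31310 there and 20.9 to 23.7 elsewhere, with S100a8, a calcium-binding protein of neutrophils, at 13.94 against 2.55 to 2.94. The summed level of 15 macrophage markers was 5880, 7929 and 7235 in late arrays, 22490, 15180 and 6124 in early arrays and 8914, 7057 and 6800 in controls, so early arrays 1 and 2 were high and early array 3 was not. Of these 15 markers, 13 exceeded 5 in some array, while Itgam and Cx3cr1 did in 0. The markers did not all follow the sum. Cd68 stood at 12.06, 11.17 and 6.23 in early and 7.90, 6.74 and 7.15 in control arrays. Lgals3 stood at 12.81, 11.69 and 7.45 against 8.22, 7.52 and 7.27. Mrc1 in early array 1 (9.56) and Cd163 in early array 2 (7.89) lay below all controls. Of 12 markers tested, 10 had positive values for early minus control and 0 were called, against 1.19% of all genes. The summed level of 8 slow fibre genes was 62140, 40400 and 5538 in late, 34640, 12320 and 4089 in early and 6031, 3734 and 11240 in control arrays. Of 7 lymphocyte markers on the array, 6 were below 5 in all arrays, among them the T and B cell genes Cd3e, Cd4, Cd8a and Ms4a1. The other, Ptprc, which encodes the pan-leukocyte protein CD45, stood at 8.09, 7.87 and 7.62 in late, 7.85, 8.29 and 6.68 in early and 7.33, 6.38 and 6.37 in control arrays, with all late arrays above all controls and early arrays overlapping them. The sum of the 7 was 246.7 to 332.1 in late, 150.6 to 364.6 in early and 132.1 to 205.7 in control arrays. All 10 skeletal muscle identity genes were above 5, with sums of 408000 to 466100. In bulk muscle, fewer cells of a type and less RNA per cell cannot be told apart. The part of these cell-type transcripts in the results below was not tested, and for members and gene lists the values without the first late array are given where they change a call or a value.

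**Figure D1:**
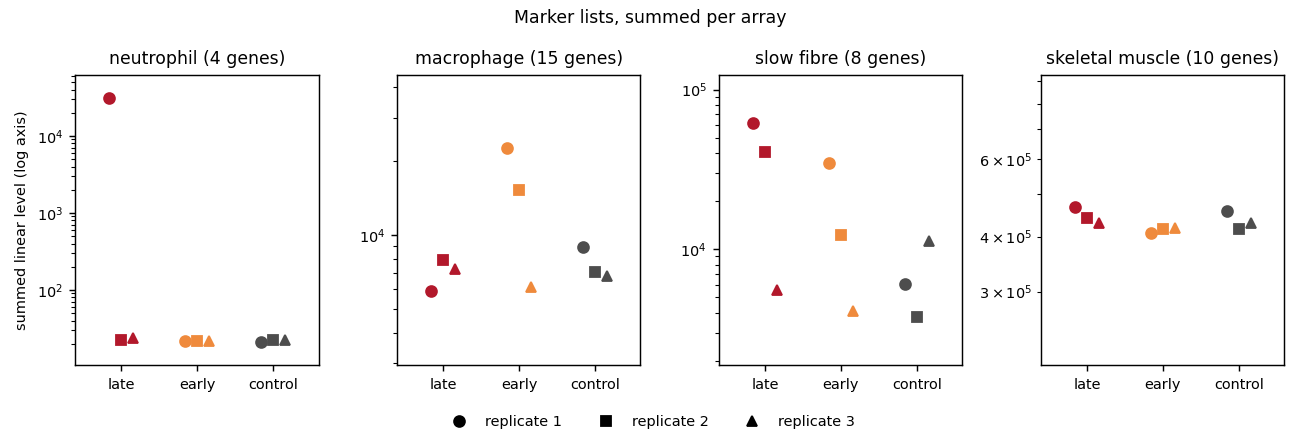
Summed linear expression of marker genes per array on a log axis, for neutrophils, macrophages, slow fibres and skeletal muscle. Points are single arrays of the late, early and control groups and symbols give the replicate number; the neutrophil sum of late replicate 1 is 31310 and the other 8 arrays lie between 20.9 and 23.7, while macrophage sums are highest in early replicates 1 and 2.

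Promoter sequences are shown for 3 genes: Ulk1, the 1 member called changed between late and early muscle, and Sqstm1 and Gabarapl1, the 2 with the widest differences between early muscle and controls. Each is the stretch just before the annotated start, outside the gene, from RefSeq on build GRCm38.p6, read 5′ to 3′ on the strand of the gene, and capitals mark a match to the forkhead core TGTTTA or its reverse complement TAAACA.
Ulk1, chr5:110810121-110810331, minus strand: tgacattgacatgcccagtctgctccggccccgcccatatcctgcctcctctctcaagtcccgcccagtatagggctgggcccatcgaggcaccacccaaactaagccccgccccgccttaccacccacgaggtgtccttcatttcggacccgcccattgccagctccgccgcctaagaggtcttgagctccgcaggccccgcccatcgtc
Sqstm1, chr11:50210821-50211070, minus strand: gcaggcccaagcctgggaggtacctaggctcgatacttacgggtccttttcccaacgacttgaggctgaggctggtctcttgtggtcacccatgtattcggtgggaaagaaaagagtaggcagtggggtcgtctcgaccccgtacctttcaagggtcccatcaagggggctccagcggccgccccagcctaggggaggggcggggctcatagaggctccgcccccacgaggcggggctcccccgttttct
Gabarapl1, chr6:129532942-129533191, plus strand: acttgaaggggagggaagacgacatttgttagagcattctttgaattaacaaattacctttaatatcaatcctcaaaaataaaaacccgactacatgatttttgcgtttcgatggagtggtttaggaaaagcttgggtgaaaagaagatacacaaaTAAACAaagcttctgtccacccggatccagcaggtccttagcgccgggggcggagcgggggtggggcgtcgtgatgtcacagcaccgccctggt
The match in Gabarapl1 lies 94 bases before the start. Forkhead factors of the FOXO group are known regulators of autophagy genes in muscle, but a match of these letters is a description and not evidence of binding. The promoter table held 8 of the 10 genes, and the 250 bases before the start were searched on both strands for 3 patterns, which do not overlap one another in the matches found, that were chosen with the results known. The forkhead core was found for 2 of 8 members, Gabarapl1 and Ctsl, against 12% of 32851 promoters. CACGTG, the core of the element bound by TFEB, a master regulator of lysosomal genes, was found for 3 of 8, Atg7, Bnip3 and Ctsl, against 6.02% of promoters. TGANNNNGC, a looser pattern than the core of the antioxidant response element bound by NRF2, was found for 2 of 8, Atg7 and Map1lc3b, against 35.2%. For Atg7 and Ctsl the window lies wholly inside the annotated span of the gene.

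Ulk1, the kinase that initiates autophagy, rose in late relative to early muscle, and the LC3 gene Map1lc3a was lower in late mice in all arrays without passing the test. Of the 10 members 1 was called, 10% against 11.5% of all genes, so the share of members called was near that of the array as a whole. The groups did not overlap for 2 of 10, against 32.1% of all genes, and 2 had an unadjusted p under 0.05, against 34.2%. Of the 10 differences 5 were positive and 5 negative, with a median of -0.07 against 0.03 over all genes.

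Ulk1 stood at 10.63, 9.93 and 9.94 in late arrays, 9.09, 9.40 and 9.41 in early arrays and 9.35, 9.45 and 9.40 in controls. The 3 late arrays were above the other 6, the first late array by most, and early arrays overlapped controls. Ulk1 was 1.82-fold higher in late than in early muscle (0.87 ± 0.20, limma adjusted p = 0.0345). The call ended with the replicate number as a block, at an adjusted p = 0.0521, and without the first late array, where the difference was 0.63 (adjusted p = 0.0568). It also ended without late array 2, early array 1 or 2 or any 1 control, with adjusted p from 0.0586 to 0.105, and held without late array 3 (adjusted p = 0.0444) or early array 3 (adjusted p = 0.0199). With no filter (adjusted p = 0.0610), the median of probe sets (adjusted p = 0.0521) or only the 2 groups fitted (adjusted p = 0.114) it ended too, so that it was lost in 11 of 17 alternative settings. With the median of probe sets Map1lc3a was the 1 member called in place of Ulk1. A second Ulk1 probe set gave 7.23, 7.12 and 7.07 in late, 5.30, 7.01 and 6.27 in early and 5.93, 6.24 and 6.53 in control arrays. It too was highest in the 3 late arrays, with a difference from early arrays of 0.95 ± 0.39 that did not pass over all probe sets (adjusted p = 0.247). Against controls Ulk1 differed by 0.77 ± 0.20 in late mice (adjusted p = 0.136), with no overlap, and by 0.54 without the first late array; it differed by -0.10 ± 0.20 in early mice.

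Becn1, which encodes Beclin 1 of the lipid kinase complex, stood at 11.21, 11.48 and 11.70 in late, 10.82, 11.45 and 11.39 in early and 11.30, 11.51 and 11.58 in control arrays. The 3 groups overlapped and early array 1 was lowest. The difference of late from early was 0.24 ± 0.20 (95% interval -0.22 to 0.71). That of early from control was -0.24 ± 0.20 and that of late from control 0.00 ± 0.20. Another Becn1 probe set gave 9.24, 9.25 and 9.11 in late, 8.93, 8.70 and 8.83 in early and 9.27, 8.83 and 9.01 in control arrays. Its late arrays lay above its early arrays, by 0.38 ± 0.12, which did not pass over all probe sets (limma adjusted p = 0.141). A dimmer set differed by 0.13 ± 0.11 for late minus early.

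Atg7, the activating enzyme of the conjugation route, stood at 4.89, 5.85 and 5.80 in late, 5.85, 5.98 and 5.71 in early and 5.87, 5.72 and 5.90 in control arrays. The first late array was below the rest, and the other 8 lay between 5.71 and 5.98. The difference of late from early was -0.33 ± 0.25, and -0.02 without that array. A second Atg7 probe set, above 5 in 9 arrays, did not show the low first late array. It gave 5.76, 5.27 and 5.09 in late, 5.38, 5.27 and 5.26 in early and 5.27, 5.20 and 5.28 in control arrays. In that set the first late array was the highest, and late differed from early by 0.07 ± 0.16. Against controls the set standing for Atg7 differed by 0.02 ± 0.25 in early mice (95% interval -0.54 to 0.57).

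Map1lc3a, an LC3 protein that is attached to the forming membrane, stood at 13.28, 12.80 and 13.06 in late, 13.99, 13.71 and 13.40 in early and 13.40, 13.57 and 13.38 in control arrays. All late arrays lay below all others. Map1lc3a was 1.57-fold lower in late than in early muscle (-0.65 ± 0.19), just short of the threshold (adjusted p = 0.0540), and -0.77 without the first late array (adjusted p = 0.0692). Without early array 3 the difference was -0.80 and was called (adjusted p = 0.0129), as it was in 6 of 17 alternative settings in all. A second probe set gave 12.12, 11.39 and 11.62 in late, 13.42, 12.69 and 12.47 in early and 12.60, 12.51 and 12.17 in control arrays. It was lowest in the 3 late arrays as well and differed from early by -1.15, also short of the threshold (adjusted p = 0.0904 over all probe sets).

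Map1lc3b, the LC3 protein most used as a marker of autophagosomes, stood at 13.94, 13.69 and 13.88 in late, 13.07, 13.40 and 13.78 in early and 13.38, 13.73 and 13.69 in control arrays. Late arrays lay close together and early arrays were spread from below to above all controls. The difference of late from early was 0.42 ± 0.20 (adjusted p = 0.169), and of all the settings tried it was called only without early array 3, at 0.60 (adjusted p = 0.0351). Its probe sets did not give the same picture. For late against early another set differed by -0.11 and a further one by 0.33 ± 0.14. For late against control the set standing for the gene differed by 0.24 and these others by 0.37 and 0.32. For early against control they differed by 0.48 and -0.02, where the set standing for the gene differed by -0.18. None of these differences passed. Neither direction is therefore given for Map1lc3b in early muscle.

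**Figure D2:**
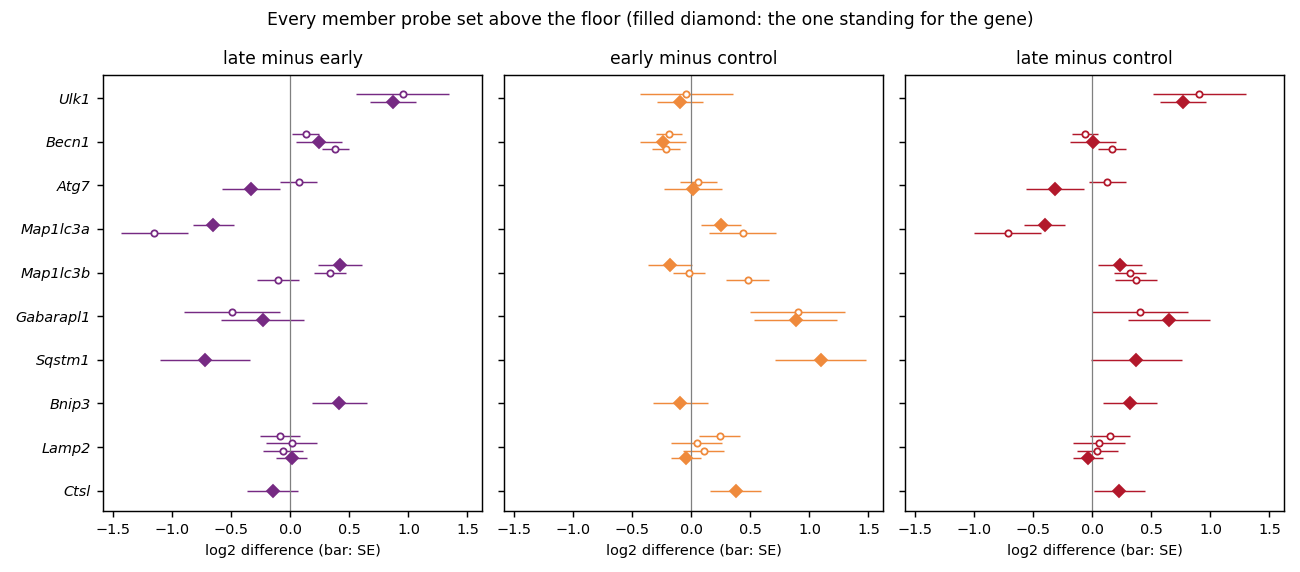
Log2 difference with its SE for each of the 21 member probe sets above 5 in at least 3 arrays, in late minus early, early minus control and late minus control. Filled diamonds are the set standing for the gene and open circles the others; both Ulk1 sets and both Map1lc3a sets point the same way, while the Map1lc3b sets lie on both sides of 0 for early minus control.

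Bnip3, a receptor for mitochondria induced by low oxygen and by FOXO3, was read by 1 probe set. It stood at 13.68, 12.87 and 12.71 in late, 12.71, 12.54 and 12.78 in early and 12.79, 12.78 and 12.75 in control arrays. The first late array stood alone and the others overlapped. The difference of late from early was 0.41 ± 0.23 (adjusted p = 0.241) and 0.12 without the first late array, and that of late from control was 0.32 ± 0.23 and 0.02 without it.

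Early mice and controls were of equal age. The p62 gene Sqstm1 and the GABARAP family gene Gabarapl1 were higher in all early arrays than in all controls, 2.14-fold and 1.84-fold on average, but the size differed widely between early arrays and neither passed the test. Of the 10 members 0 were called by limma, against 1.19% of all genes, and 2 had an unadjusted p under 0.05, against 18.5%. The groups did not overlap for these 2, against 23.6% of all genes. Of the 10 differences 5 were positive, with a median of -0.02 against -0.03 over all genes.

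**Figure D3:**
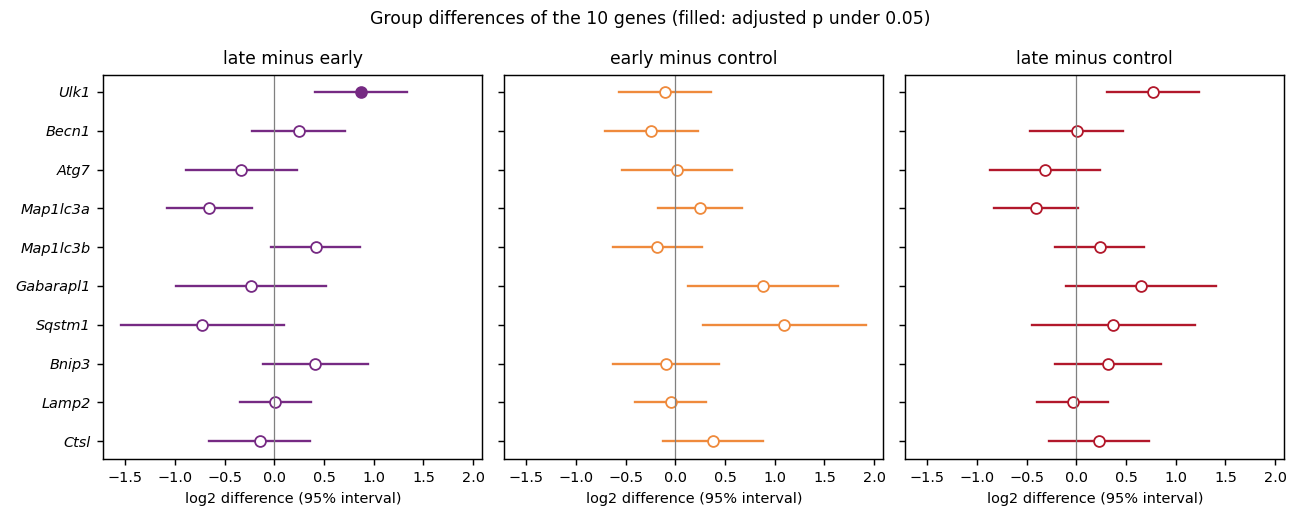
Log2 difference of the 10 genes with its 95% interval in late minus early, early minus control and late minus control; filled points passed at an adjusted p under 0.05. Ulk1 at 0.87 in late minus early is the 1 filled point. Sqstm1 and Gabarapl1, at 1.10 and 0.88 in early minus control, have the widest intervals in every comparison, as each gene has 1 SE for all of them.

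Sqstm1 stood at 12.64, 11.97 and 11.78 in late, 13.33, 13.26 and 11.97 in early and 11.82, 11.79 and 11.67 in control arrays. Early arrays 1 and 2 were far above every control, while early array 3 was level with late array 2. Sqstm1 was 2.14-fold higher in early muscle than in controls (1.10 ± 0.36, adjusted p = 0.182). Without early array 3 the difference was 1.54 (adjusted p = 0.00505). This was the 1 call among the 9 fits that each left out 1 array. In those fits the difference ranged from 0.86 to 1.54, with limma adjusted p up to 0.468. In late mice the difference was 0.37 ± 0.36 against controls, with groups that overlapped, and 0.12 without the first late array. Late minus early was -0.73 ± 0.36 (adjusted p = 0.190), and -1.17 without early array 3 (adjusted p = 0.0100). That too was the 1 call of the 9 fits, in which late minus early ranged from -1.17 to -0.49. A second, dim Sqstm1 probe set was at 5.36 and 3.85 in early arrays 1 and 2 and between 2.64 and 2.72 in the other 7.

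Gabarapl1, known as a FOXO target in muscle, stood at 10.38, 9.93 and 9.47 in late, 10.78, 10.25 and 9.45 in early and 9.36, 9.20 and 9.28 in control arrays. All 6 induced arrays lay above all controls, and within both induced groups array 1 was highest and array 3 lowest. It was 1.84-fold higher in early muscle than in controls (0.88 ± 0.33, adjusted p = 0.222), and without early array 3 the difference was 1.24 (adjusted p = 0.0186). Of the 9 fits that each left out 1 array, Gabarapl1 was called in this 1 alone. It differed by 0.57 to 1.24 in them, with limma adjusted p up to 0.545. In late mice it was 0.65 ± 0.33 above controls (adjusted p = 0.351) and 0.42 without the first late array. Late and early mice differed by -0.23 ± 0.33 (95% interval -0.99 to 0.52). A second probe set gave 0.90 for early against control and 0.40 for late against control. It stood at 9.75, 9.30 and 8.75 in late, 10.47, 9.92 and 8.90 in early and 8.88, 8.83 and 8.89 in control arrays. In that set late array 3 lay below all controls and early array 3 barely above them.

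Ctsl, the lysosomal protease cathepsin L, stood at 13.49, 12.92 and 12.88 in late, 13.55, 13.33 and 12.85 in early and 12.90, 12.82 and 12.88 in control arrays. Early arrays 1 and 2 and the first late array were high and the remaining 6 arrays lay between 12.82 and 12.92. Early mice differed from controls by 0.38 ± 0.22 (adjusted p = 0.381) and late mice by 0.23 ± 0.22, which was 0.03 without the first late array. Lamp2, a lysosomal membrane protein needed for fusion, lay between 12.49 and 12.95 in all 9 arrays. Its 3 differences were 0.01 for late minus early, -0.05 for early minus control and -0.04 for late minus control, each with an SE of 0.16, and the 95% interval for early minus control was -0.40 to 0.31. Its 4 probe sets differed by -0.09 to 0.01 for late minus early.

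The high values of Sqstm1, Gabarapl1 and Ctsl in the early group were in arrays 1 and 2, the 2 with the highest macrophage sums of all 9. As given above, Cd68 and Lgals3 were high in both arrays, while Mrc1 and Cd163 were not. Cathepsin L and p62 are also made by macrophages. In the first late array, which had the lowest macrophage sum of the 9, Sqstm1, Gabarapl1 and Ctsl were each the highest of the late group. That array was also the one with neutrophil transcripts, at a sum of 31310. Slow fibre sums fell from array 1 to array 3 in late (62140, 40400 and 5538) and early mice (34640, 12320 and 4089), the order of these genes there. In controls the slow fibre sum was highest in array 3 (11240). The share of these transcripts that came from muscle fibres, slow fibres among them, or from immune cells was not tested.

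Against controls, late muscle showed the differences in Ulk1, Gabarapl1 and Map1lc3a given above and none that passed. Of the 10 members 0 were called by limma, against 0.206% of all genes, and Ulk1 alone had an unadjusted p under 0.05, against 17.3% of all genes. The groups did not overlap for 3 members, Ulk1 and Gabarapl1 higher and Map1lc3a lower, against 31% of all genes. The second Gabarapl1 probe set did overlap. Map1lc3a differed by -0.41 ± 0.19 (limma adjusted p = 0.308), and by -0.52 without the first late array. Without the first late array limma called 0 members between late and early mice, where 3.03% of all genes were called. In that fit 3 of 10 members had an unadjusted p under 0.05, against 2882 of all 9697 genes. It called 0 between late mice and controls, where 0.0928% of all genes were called, and 2 of 10 had an unadjusted p under 0.05, against 1271 of 9697. Without early array 3, Ulk1, Map1lc3a, Map1lc3b and Sqstm1 were called between late and early mice, 4 of 10 against 30.5% of all genes. Sqstm1 and Gabarapl1 were then called between early mice and controls, 2 of 10 against 18.1%.

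Among all genes tested, those closest to Sqstm1 over the 9 mean-centred arrays were Pla2g7, Ddx56, Septin11, Fam214b and Tsacc, with root mean square distances of 0.13, 0.15, 0.16, 0.18 and 0.18. Sqstm1 had been taken because its group means spanned the widest range of the 10 genes, 1.10. Pla2g7 averaged 8.59 in late, 9.27 in early and 8.23 in control arrays.

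Other genes of the pathway were followed by role. Of 119 listed, 110 were on the array and 106 were tested. Between late and early mice, regulators, lipid kinase and fusion genes had mostly positive values and lysosomal genes mostly negative ones. Of the 106 genes, 10 rose and 6 fell and 90 did not pass, 15.1% called against 11.5% of all genes. Their median was -0.04. Because late minus early and early minus control share the early arrays, a gene high in early muscle tends to be low in the first and high in the second.

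Of 4 other genes of the initiation complex, Ulk2, the paralog of Ulk1, rose in late relative to early mice. Its levels were 11.00, 11.36 and 11.34 in late, 9.82, 10.17 and 10.64 in early and 10.64, 10.59 and 10.71 in control arrays. All late arrays were above all others, as for Ulk1, and Ulk2 was 2.03-fold higher in late than in early muscle (1.02 ± 0.21, adjusted p = 0.0251). Rb1cc1, which encodes the scaffold FIP200, rose by 0.71 ± 0.19 (adjusted p = 0.0455).

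Atg13, which binds ULK1 and FIP200, stood at 8.01, 7.80 and 7.81 in late, 8.31, 8.50 and 8.47 in early and 7.39, 7.11 and 7.39 in control arrays. The 3 groups did not overlap, with early highest and control lowest. Atg13 rose 2.19-fold in early mice relative to controls (1.13 ± 0.14, adjusted p = 0.00913), and it fell by 0.56 ± 0.14 in late relative to early mice (adjusted p = 0.0399). It was the 1 pathway gene called in early muscle, 0.943% of 106 against 1.19% of all genes. That call ended without early array 2 (adjusted p = 0.0561), control 2 (adjusted p = 0.0694) or control 3 (adjusted p = 0.0589).

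In the class III lipid kinase complex, the catalytic subunit Pik3c3 rose in late relative to early mice. It stood at 8.51, 8.44 and 8.56 in late, 7.56, 7.98 and 7.80 in early and 7.75, 7.87 and 8.05 in control arrays. Late arrays were above all others and the difference was 0.73 ± 0.15 (adjusted p = 0.0251). All 5 genes of this list had positive values, with a median of 0.38 and 1 called. Without the first late array 4 of 5 were positive, the median was 0.19 and 0 were called by limma. In that fit 2 of 5 had an unadjusted p under 0.05, against 2882 of all 9697 genes. The median was 0.18 without early array 3.

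Of 14 genes for membrane supply and LC3 conjugation, Wipi1, which binds the marked membrane, and Atg4b, the protease that trims LC3, fell in late relative to early mice, by 0.99 ± 0.17 (adjusted p = 0.0161) and 0.81 ± 0.15 (adjusted p = 0.0204), and 12 did not pass. The GABARAP family genes Gabarap and Gabarapl2 had values of -0.87 ± 0.31 (adjusted p = 0.0878) and -0.40 ± 0.26. Of 5 cargo receptors, Calcoco1 rose by 1.16 ± 0.26 (adjusted p = 0.0314). Of 11 fusion genes, Vps41, part of the HOPS tether, rose by 0.49 ± 0.12 (adjusted p = 0.0364) and Epg5, another tether, by 0.68 ± 0.17 (adjusted p = 0.0421).

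Among 18 genes of the lysosome membrane and proton pump, 15 had negative values in late minus early, with a median of -0.38 against 0.03 over all genes. Of these the pump subunits Atp6v0d1 (-0.61 ± 0.14, adjusted p = 0.0333) and Atp6v1c1 (-0.80 ± 0.21, adjusted p = 0.0430) fell. Of 10 other cathepsins, 8 had negative values (median -0.44); Ctsa fell by 0.84 ± 0.17 (adjusted p = 0.0251) and Ctso rose by 0.78 ± 0.20 (adjusted p = 0.0443). Of 22 other hydrolases and cofactors 0 were called by limma and 19 had negative values (median -0.38). In that list 7 genes with negative values and 1 with a positive value had an unadjusted p under 0.05, 36.4% against 34.2% of all genes. Without early array 3, where 30.5% of all genes were called, 10 of 18, 6 of 10 and 10 of 22 genes of the 3 lists fell and the medians were -0.55, -0.73 and -0.48. With the first late array left out limma called 0 genes of these lists lower and 1, a cathepsin, higher, where 3.03% of all genes were called. The medians were -0.30, -0.54 and -0.28. In that fit 6 of 18, 4 of 10 and 3 of 22 genes had an unadjusted p under 0.05 in either direction, against 2882 of all 9697 genes. In early minus control the same 3 lists had positive values for 14 of 18, 8 of 10 and 19 of 22 genes, with medians of 0.35, 0.23 and 0.16. In that comparison 0 of these were called by limma, and 2, 1 and 3 of them had an unadjusted p under 0.05, which is 11.1%, 10% and 13.6% against 18.5% of all genes. With early array 3 left out the medians were 0.54, 0.39 and 0.34 and 7, 3 and 6 genes rose, 38.9%, 30% and 27.3% against 18.1% of all genes called.

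In the 3 lysosomal lists early arrays 1 and 2, those with the highest macrophage sums, stood apart from early array 3. The median deviation from the control mean was 0.64, 0.40 and -0.06 in early arrays 1, 2 and 3 for membrane and pump genes, 0.64, 0.24 and -0.16 for cathepsins and 0.32, 0.37 and -0.18 for the other hydrolases. Over all genes tested it was -0.03, -0.007 and -0.04 in these arrays. Early arrays 1 and 2 both lay above all controls for 13 of 18, 5 of 10 and 13 of 22 genes, and early array 3 did for 2, 0 and 1, so not every gene of a list followed this order. The same count was not made over all genes, so whether these counts exceed those of the array as a whole was not tested. As an example chosen for its arrays, Hexa, a lysosomal hydrolase, stood at 10.79, 11.05 and 11.02 in late, 12.87, 12.62 and 10.77 in early and 11.00, 10.95 and 10.93 in control arrays. Early arrays 1 and 2 were high and early array 3 was the lowest of all 9. Cathepsin D showed the same arrays high, at 11.62, 11.80 and 11.89 in late, 12.86, 12.94 and 11.82 in early and 11.97, 11.80 and 11.91 in control arrays.

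Of 15 regulators, 13 had positive values in late minus early, with a median of 0.47, and 3 rose. Without the first late array 11 were positive, the median was 0.30 and 0 were called by limma. In that fit 5 of 15 had an unadjusted p under 0.05, against 2882 of all 9697 genes. The 3 that rose were Tsc2, a brake on mTOR (1.02 ± 0.22, adjusted p = 0.0272), Prkaa2, the AMPK catalytic subunit most abundant in muscle (0.76 ± 0.14, adjusted p = 0.0198), and Mtor itself, whose kinase restrains ULK1 (0.69 ± 0.16, adjusted p = 0.0341). Against controls, late mice had 0 of 106 pathway genes called by limma, against 0.206% of all genes, and 24 with an unadjusted p under 0.05, 22.6% against 17.3%, with Mtor at 0.73 ± 0.16 (adjusted p = 0.0965) and Pik3c3 at 0.61 ± 0.15 (adjusted p = 0.119).

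Without the first late array, Ulk2, Wipi1 and Ctso were the 3 pathway genes still called between late and early mice, 2.83% against 3.03% of all genes. The other 13 differences kept their direction at 0.76 to 1.17 times their size, with adjusted p from 0.0520 to 0.0911. The number called was 0 without late array 2, 9 without late array 3, 1 without early array 1 or 2, and 8, 3 and 6 without control 1, 2 and 3. The share of all genes called fell in the same fits, to between 1.47% without late array 2 and 7.5% without late array 3. Without early array 3, 16 rose and 32 fell, 45.3% against 30.5% of all genes. In early mice against controls 22 rose and 5 fell in that fit, 25.5% against 18.1%. With the replicate block the calls of Atg13 (adjusted p = 0.0533), Rb1cc1 (adjusted p = 0.0649), Vps41 (adjusted p = 0.0506) and Epg5 (adjusted p = 0.0618) in late minus early ended. Of the 16 calls 12 remained under the block and 5 were added, all lower, so that 17 were called. When the median of a gene's probe sets was used, the late minus early difference shrank to 0.04 for Prkaa2, 0.13 for Rb1cc1, 0.30 for Vps41, -0.17 for Atg4b and -0.13 for Atp6v1c1, and these 5 calls ended. The call of Wipi1 ended in that setting too, at -0.80 (adjusted p = 0.0552).

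**Figure D4:**
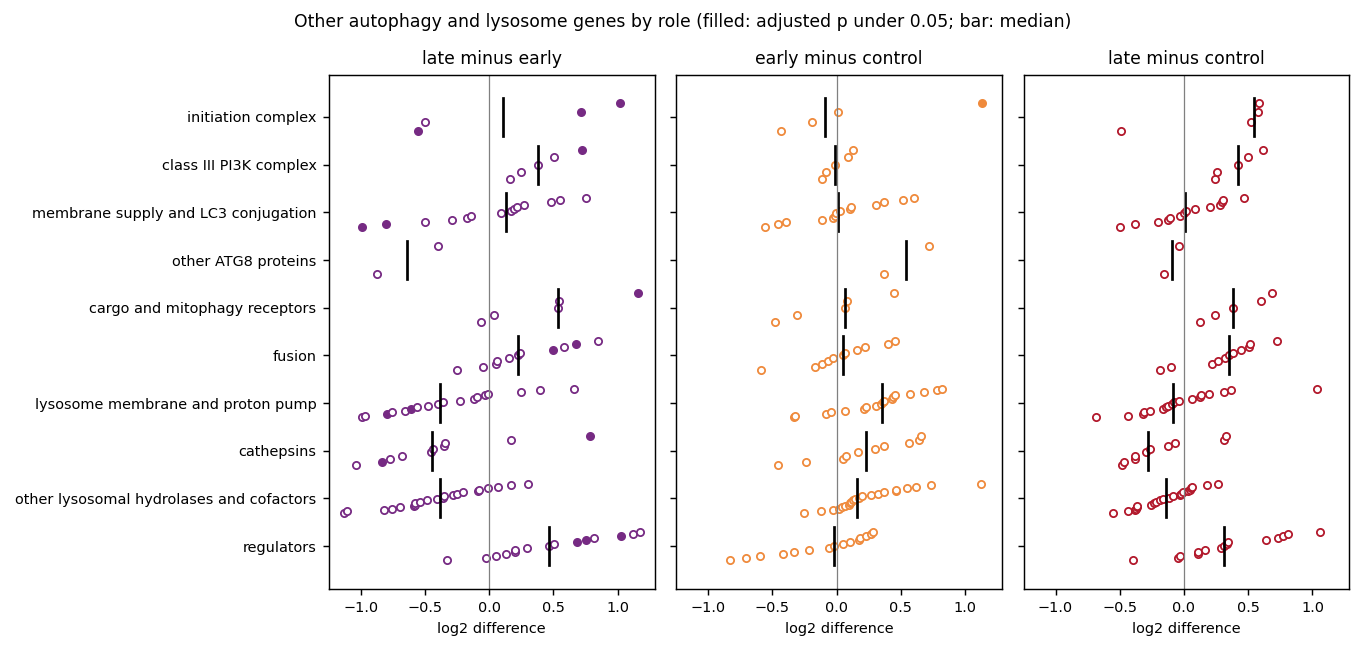
Log2 differences of the 106 other autophagy and lysosome genes by role in late minus early, early minus control and late minus control. Each point is a gene, filled where the adjusted p was under 0.05, and bars are medians; in late minus early the medians are 0.47 for regulators and -0.38 for lysosome membrane and proton pump genes.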

How the data were processed

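Total RNA of 9 quadriceps samples was converted to cDNA from an oligo(dT) primer and then to biotin-labelled cRNA for Affymetrix arrays, per the labels' protocols. The deposited log2 values are those of GCRMA, per the submitters' processing notes, which makes the distributions of arrays alike and compresses dim probe sets; no settings of it are recorded there. Of 45101 probe sets, 34945 named 1 gene, 932 several and 9211 none, and 64 were controls. With a value above 5 in at least 3 arrays 16048 passed, and the brightest per gene left 9697 genes. A model of 3 group means was fitted to all 9 arrays with limma 3.58.1 in R 4.3.3, after a test on simulated data, with two-sided p-values adjusted by the Benjamini-Hochberg method; intervals are 95%. Other probe sets of a member were fitted over all single-gene probe sets. Arrays have no read depth, and 3 per group limits the precision; p-values therefore reflect only how these samples spread, and the labels do not say what the mice of a group share.

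Deviations of same-numbered late and early arrays correlated at r = 0.168, 0.201 and 0.160 across genes, which are no independent replicates, so the block was run beside the fit. For early and control numbers r was 0.350, 0.110 and -0.0391. For late and control numbers r was 0.0847, -0.165 and -0.110. Arrays of unlike number were not correlated, so whether the numbers pair was not tested. The members, pathway and marker lists were chosen with earlier results of these data known. Named by rule were all 10 members, H2-K1, up to 3 genes of each pathway list with the smallest p per comparison and the 5 genes closest to the member of widest range; from these the text gives those called and a few others, and Hexa, Ctsd and S100a8 were picked for their arrays after their values were seen. Alternatives were another filter, the median of probe sets, centring, the groups compared alone, array weights, an intensity trend, the block and leaving out each array. Promoters came from RefSeq (GRCm38.p6); protein sequences were not used here.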

Additional observations from a re-analysis of the deposited data

Results flagged for a closer look

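The difference of late from control and that of early from control were not the same size for 17 of the genes followed, by the test of late minus early (limma, adjusted p under 0.05). The control mean cancels in that test, so these are the late minus early calls given above. They were 10% of members and 15.1% of pathway genes, against 11.5% of all genes. Age and the timing of induction cannot be told apart in them, and leaving out 1 array gave 0 to 48 pathway calls. Among the members the gene called was Ulk1, at 0.87 on the log2 scale. In the pathway lists the late effect was higher for Ulk2 (1.02), Rb1cc1 (0.71), Pik3c3 (0.73), Calcoco1 (1.16), Vps41 (0.49), Epg5 (0.68), Ctso (0.78), Prkaa2 (0.76), Tsc2 (1.02) and Mtor (0.69). It was lower for Atg13 (-0.56), Wipi1 (-0.99), Atg4b (-0.81), Atp6v0d1 (-0.61), Atp6v1c1 (-0.80) and Ctsa (-0.84).

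Some transcripts left out of the comparisons by the filter were above 5 in an induced array and in no control. A dim second Sqstm1 probe set reached 5.36 in early array 1, and Fcgr1, a macrophage receptor, reached 5.51 in early array 2. The first late array had S100a8 at 13.94, S100a9 at 13.87, Mpo at 8.96 and Elane at 6.56, all genes of neutrophils or their precursors. The other 2 late arrays had S100a8 at 2.65 and 2.94, and controls had it at 2.55, 2.61 and 2.64.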

How the results depend on the processing

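The count of members called between late and early mice, 1, became 0 with no filter, with only the 2 groups fitted and with the replicate block, 2 with a filter at 6, with arrays centred on their medians and with an intensity trend, 3 with array weights and 0 to 4 when 1 array was left out. Without early array 3 it was 4, without late array 3 it was 1, and without any other single array it was 0. For early against control it was 3 with array weights and 0 to 2 leaving out 1 array, and for late against control 2 with array weights. Pathway genes called between late and early mice, 16, became 0 with 2 groups, 54 with array weights and 0 to 48 leaving out 1 array; for early against control, 1, they became 49 with array weights and 0 to 27, and for late against control, 0, they became 14 with array weights. All genes called between late and early mice, 1119, became 584 with no filter, 38 with 2 groups, 3534 with array weights and 143 to 2959 leaving out 1 array. For early against control, 115, they became 56, 61 and 3335 in the same settings, 62 with the block and 6 to 1756. For late against control, 20, they became 12 with 2 groups, 1037 with array weights, 5 with the block and 5 to 59. The weights fit stopped before it converged, so its counts are the least certain. The block changed no other call of a member. Fitting 2 groups leaves fewer arrays for the spread, and the cause of the other changes was not tested.

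Differences near 0 changed sign. Lamp2, late minus early, was -0.026 with the median of probe sets, -0.021 with centred arrays, -0.19 with array weights and -0.070 to 0.16 leaving out 1 array. Lamp2, early minus control, was 0.075 with the median, 0.13 with array weights and -0.20 to 0.033 leaving out 1 array, and Lamp2, late minus control, was 0.049 with the median and -0.11 to 0.0085 leaving out 1 array. With the median of probe sets Map1lc3b (0.12), Rb1cc1 (0.016) and Stx17 (0.14) turned positive for early minus control, as did Gabarapl2 (0.058) for late minus control, which ranged from -0.19 to 0.096 leaving out 1 array. Becn1, late minus control, was -0.019 with centred arrays and -0.12 to 0.13 leaving out 1 array. So left, early minus control ranged from -0.050 to 0.084 for Atg7, -0.16 to 0.0058 for Ulk1 and -0.023 to 0.33 for Uvrag, and late minus early from -0.35 to 0.0050 for Ctsl and -0.59 to 0.077 for Gabarapl1.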
